A study of Mus musculus with 6 samples.

Results

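The miR-30 family was examined in small RNA libraries of GC-1spg cells, an immortalised mouse line of testicular origin that serves as a model of spermatogonia. Its members were taken by name, mature miR-30a, b, c, d and e with both arms of each hairpin, which gave 10 of the 1224 miRNA names in the table. All 10 had counts in every library and all 10 passed the filter on low counts. The cells of one group received an siRNA against METTL3 (si-METTL3, 3 libraries) and those of the other a control siRNA (si-NC, 3 libraries), and both were collected after 48 h. One label tag calls the controls untreated, although the protocol has them transfected too. All 6 libraries come from the same line, and the labels name no other treatment. METTL3 is the enzyme that methylates adenosines of RNA to N6-methyladenosine. The labels give the METTL3 siRNA and the control siRNA one and the same sequence, and mature miRNA counts hold no Mettl3 mRNA, so the knockdown could not be checked. Nor do they state that the libraries came from separate cultures, so every p-value rests on library-to-library spread that may be technical only.

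A miRNA hairpin is cut by Drosha and Dicer into a duplex of a 5p and a 3p arm. Usually one arm, the guide, is kept in an Argonaute protein and directs it to mRNAs through its seed, the bases 2 to 8, while the other, the passenger, is mostly degraded. Enzymes can afterwards trim the 3′ end or add bases to it that the genome does not hold. In other tissues, such as kidney, heart and epithelia, the miR-30 family is known for repressing genes of extracellular matrix and of the change from epithelial to mesenchymal cells. In human cells miR-30a is also known to repress the autophagy gene BECN1. The hairpins lie in 3 genomic pairs, miR-30a with miR-30c-2, miR-30b with miR-30d, and miR-30e with miR-30c-1.

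The mature sequences show how closely the names resemble each other, and each is printed 5′ to 3′ with its seed in capitals. All 5 of the 5p arms carry the seed GUAAACA. RefSeq sequences (GRCm38.p6) were matched for 6 of the 10 members. The 5p arms were
miR-30a-5p: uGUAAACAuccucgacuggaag
miR-30e-5p: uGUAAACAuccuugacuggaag
miR-30c-5p: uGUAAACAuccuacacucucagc
and the 3p arms, which carry other seeds, were
miR-30a-3p: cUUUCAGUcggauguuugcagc
miR-30e-3p: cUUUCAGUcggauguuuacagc
miR-30c-2-3p: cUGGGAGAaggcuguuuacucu
Counted from 1 at the 5′ end, miR-30a-5p and miR-30e-5p differ by 1 base (C13U), and miR-30a-3p and miR-30e-3p also by 1 (G18A). The labels do not state how reads with a mismatch were assigned, so the split of reads between these near-identical names is uncertain.

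The hairpins are printed with both arms in capitals, to show which arms come from which locus.
Mir30a: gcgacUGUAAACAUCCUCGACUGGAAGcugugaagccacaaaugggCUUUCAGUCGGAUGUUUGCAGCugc
Mir30c-2: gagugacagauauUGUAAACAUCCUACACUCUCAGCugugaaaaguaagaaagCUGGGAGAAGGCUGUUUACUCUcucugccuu
Mir30e: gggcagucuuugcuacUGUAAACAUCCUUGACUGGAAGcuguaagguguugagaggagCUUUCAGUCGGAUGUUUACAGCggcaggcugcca
Mir30c-1: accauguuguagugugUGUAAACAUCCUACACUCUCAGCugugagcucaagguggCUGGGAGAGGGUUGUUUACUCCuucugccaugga
Mir30a lies at chr1:23272269-23272339 and Mir30c-2 at chr1:23291701-23291784, both on the plus strand and 19361 bases apart. Mir30c-2 is within an exon of the long non-coding RNA gene Gm27028, and Mir30a is in no other gene of GENCODE M21. Mir30e, at chr4:120772606-120772697, and Mir30c-1, at chr4:120769534-120769622, lie 2983 bases apart on the minus strand, in introns of Nfyc on the same strand. The arm miR-30c-5p has one sequence in Mir30c-1 and Mir30c-2, so its counts sum 2 loci. The letters GGAC, part of a motif that METTL3 is known to methylate, were in none of these 4 hairpins on either strand. Of 1005 mouse hairpins in the RefSeq table, 24.5% held them on the sense strand and 40.5% on either strand. Only the sense strand is in the hairpin RNA. Motifs without these letters and transcript outside the hairpins were not searched, so METTL3 sites there could not be seen.

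The totals behind the normalised values were 3998058 to 4052812 reads in si-NC and 4473804 to 6132668 in si-METTL3. At these depths 3 counts stand for 0.489 to 0.75 CPM, the usual unit of counts scaled to library size. Of 17 names known from invertebrates, si-NC 1 held 7 counts and the others 216 to 845. One of them, miR-750-y, had counts in si-NC 2, si-NC 3 and si-METTL3 1 and none in the other 3 libraries. By these names the libraries fall into 3 sets. The first is si-NC 1. The second holds si-NC 2, si-NC 3 and also si-METTL3 1. The third holds the remaining pair of si-METTL3 libraries. What the sets stand for was not tested, so results are also given with a term for them. Only the second set holds both groups, so folds with that term compare si-METTL3 1 alone with si-NC 2 and si-NC 3. Male germ-line miRNAs of the X chromosome summed to 141 to 170 CPM in si-NC and 124 to 134 in si-METTL3, with all 11 of their names listed and 2 of 9 tested names lower, beside 11.6% lower of all 622 tested names. Of the 9, miR-465a-3p, miR-465b-3p and miR-465c-3p have identical values, so their reads enter the sum and the count under each name. Muscle miRNAs, mostly miR-206-3p, summed to 89.7 to 92.9 and 49.1 to 64.3 CPM, with 1 of 2 tested names lower. Blood miRNAs stood at 54.5 to 64.6 and 57.3 to 61.3, those of gonadal somatic cells at 17.8 to 20.3 and 16.9 to 21.3, and those of neurons and liver at under 4 CPM. The part of these markers in the results was not tested.

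In si-NC the family took 5.13% ± 0.119 (SD, n = 3) of a library. Levels are CPM scaled by the TMM method, and since mature miRNAs are nearly equal in length they were not divided by it. Among the guides, miR-30a-5p (mmu-miR-30a-5p in the table) stood at 29028 ± 483 CPM (mean ± SD, n = 3), the seventh most abundant name of the table. miR-30e-5p followed at 6785 ± 181, miR-30d-5p at 6319 ± 95.7 and miR-30c-5p at 6257 ± 187, where the libraries of the last pair overlap. miR-30b-5p was far lower at 942 ± 12.9. The 3p arms were all below the 5p arms. They ran from miR-30a-3p at 416 ± 20.2 CPM through miR-30c-2-3p at 217 ± 11.7 and miR-30e-3p at 79.7 ± 8.33 to miR-30b-3p at 52.8 ± 2.31 and miR-30d-3p at 42.4 ± 1.70. Together the 3p arms gave 1.61% ± 0.096 of the family's counts in si-NC and 1.51% ± 0.0521 in si-METTL3.

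**Figure D1:**
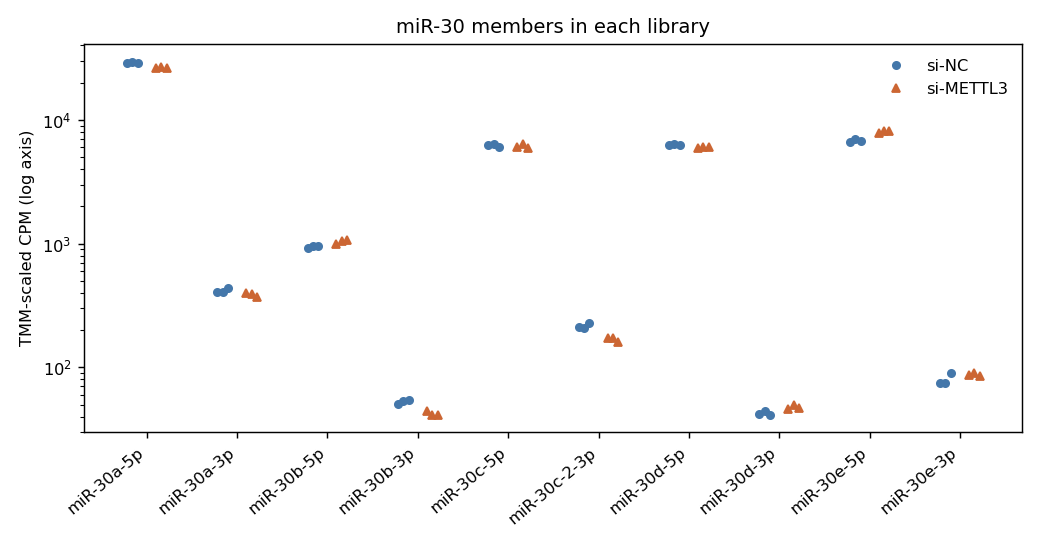
TMM-scaled CPM (log axis) of the 10 miR-30 members, with 1 point for each library, circles for si-NC and triangles for si-METTL3. The 5p arms stand above the 3p arms, from miR-30a-5p at about 29028 CPM in si-NC to miR-30d-3p at 42.4.

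After METTL3 siRNA the family did not move as one. Of the 10 members, 2 rose and 3 fell past an adjusted p of 0.05 (two-sided quasi-likelihood test of edgeR, adjusted by Benjamini-Hochberg over 622 tested names). Over all tested names 29.3% passed, 17.7% higher and 11.6% lower. Many of those names are less abundant than any member. Among names of at least 10 CPM in 3 libraries, 181 of 413 passed, 99 higher and 82 lower, and 6 of the 10 members. The count of members was 5 in the main test and also without si-METTL3 1. It was 4 without si-NC 1, by the loss of miR-30b-5p. Without any other 1 library it was 3, by the loss of both miR-30b arms. The rises were miR-30e-5p and miR-30b-5p, and the falls were miR-30a-5p, miR-30c-2-3p and miR-30b-3p. The median log2 fold was -0.05 over the members and 0.0054 over all tested names. In 8 members the libraries of the groups did not overlap, against 41.2% of all tested names, a share not taken at like abundance. The folds are relative to the rest of the library, so a change shared by all miRNAs would not show. The split of all calls was 60.4% higher here and 44.9% higher with library totals alone.

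miR-30a-5p, the main guide of the family, was lower in every si-METTL3 library. It stood at 28696, 29581 and 28807 CPM in si-NC and at 26080, 26828 and 26325 in si-METTL3. Its groups did not overlap, and it fell to 0.91 of its si-NC level (log2 fold -0.14 ± 0.04 SE, adjusted p 0.0074, edgeR). With a term for the 3 library sets, which leaves si-METTL3 1 alone in its group, the log2 fold was -0.16.

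Its passenger, miR-30a-3p, stood at 404, 405 and 439 CPM in si-NC and at 398, 391 and 372 in si-METTL3. The groups did not overlap but lay close, and the log2 fold of -0.10 ± 0.05 did not pass (adjusted p 0.169, edgeR). It passed with library totals alone (-0.17 ± 0.06, adjusted p 0.025) and when longer reads of the same arm were added (-0.14 ± 0.05, adjusted p 0.034).

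From the neighbouring hairpin, miR-30c-2-3p (mmu-miR-30c-2-3p) had the largest fold of the 10 members. It stood at 214, 207 and 230 CPM in si-NC and at 173, 171 and 159 in si-METTL3. All 3 si-METTL3 libraries lay below all si-NC libraries, and the arm fell to 0.776 of its si-NC level (log2 fold -0.37 ± 0.06, adjusted p 9.3e-05, edgeR). With the term for the 3 sets, which leaves si-METTL3 1 alone in its group, the log2 fold was -0.33.

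miR-30c-5p, known in the rodent heart for repressing the matrix gene Ctgf, did not pass the test. It stood at 6284, 6429 and 6057 CPM in si-NC and at 6067, 6429 and 5924 in si-METTL3. These ranges overlap, and the log2 fold was -0.03 ± 0.04 (adjusted p 0.684, edgeR). The 3p arm of its second locus, miR-30c-1-3p, is no member and had only 10 to 27 counts per library (log2 fold -0.07 ± 0.34, adjusted p 0.912). Which of the loci gave the miR-30c-5p reads cannot be told apart.

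miR-30e-5p (mmu-miR-30e-5p), whose sequence is 1 base from that of miR-30a-5p, went the other way. It stood at 6604, 6966 and 6785 CPM in si-NC and at 7906, 8122 and 8100 in si-METTL3. All si-METTL3 libraries lay above all si-NC libraries, and it rose 1.19-fold (log2 fold 0.25 ± 0.04, adjusted p 2.5e-05, edgeR). With the term for the 3 sets, which leaves si-METTL3 1 alone in its group, the rise was 0.20. The passenger miR-30e-3p stood at 75.0, 74.8 and 89.3 CPM in si-NC and at 86.8, 89.2 and 85.8 in si-METTL3. si-NC 3 was the highest of all 6 libraries and the other si-NC libraries were the lowest, and the log2 fold of 0.13 ± 0.08 did not pass (adjusted p 0.273).

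The ratio of miR-30e-5p to miR-30a-5p counts needs no scaling between libraries. It was 0.230, 0.236 and 0.236 in si-NC and 0.303, 0.303 and 0.308 in si-METTL3. The means, 0.234 ± 0.0031 and 0.305 ± 0.00274 (SD, n = 3), differ by a factor of 1.30, far more than the libraries of either group differ among themselves. The pair was chosen after its values were seen, and no test is given. The 3p arms differed in the same direction, with miR-30e-3p over miR-30a-3p at 0.191 ± 0.0104 and 0.226 ± 0.00674 and no overlap.

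miR-30b and miR-30d, known in human melanoma for promoting invasion, lie at one locus. Both miR-30b arms passed the test, in opposite directions, and neither miR-30d arm did. The difference between the hairpins was not tested. miR-30b-5p stood at 927, 949 and 950.1 CPM in si-NC and at 1000.2, 1046 and 1072 in si-METTL3. It rose 1.10-fold with no overlap (log2 fold 0.14 ± 0.04, adjusted p 0.018, edgeR). That call was lost under 10 of 19 alternatives, among them library totals alone (0.07 ± 0.05, adjusted p 0.245), the term for the 3 sets (0.08 ± 0.07, adjusted p 0.495) and leaving out any 1 library other than si-METTL3 1 (adjusted p 0.0508 to 0.0906).

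The opposite arm, miR-30b-3p, was lower in every si-METTL3 library. It stood at 50.1, 53.9 and 54.3 CPM in si-NC and at 44.4, 41.5 and 41.4 in si-METTL3. The log2 fold was -0.31 ± 0.10 (adjusted p 0.018, edgeR), on 180 to 271 counts per library. That call was lost under 6 of 19 alternatives, those with a term for the 3 sets (-0.28 ± 0.16, adjusted p 0.212) or for miR-750-y (-0.28 ± 0.11, adjusted p 0.051) and those that left out 1 library other than si-NC 1 and si-METTL3 1 (adjusted p 0.05 to 0.064).

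miR-30d-5p stood at 6325, 6412 and 6220 CPM in si-NC and at 5926, 6011 and 6035 in si-METTL3. Its groups did not overlap, but the log2 fold of -0.08 ± 0.04 did not pass (adjusted p 0.144, edgeR). With library totals alone it passed at -0.14 ± 0.04 (adjusted p 0.0039). The passenger miR-30d-3p stood at 41.5, 44.3 and 41.3 CPM in si-NC and at 45.9, 49.8 and 46.6 in si-METTL3, higher in each (log2 fold 0.16 ± 0.10, adjusted p 0.261). The ratio of miR-30b-3p to miR-30d-3p counts was 1.21, 1.21 and 1.32 in si-NC and 0.968, 0.833 and 0.888 in si-METTL3. In si-METTL3 1 the counts were close, at 271 and 280. This pair was chosen after its values were seen and was not tested.

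**Figure D2:**
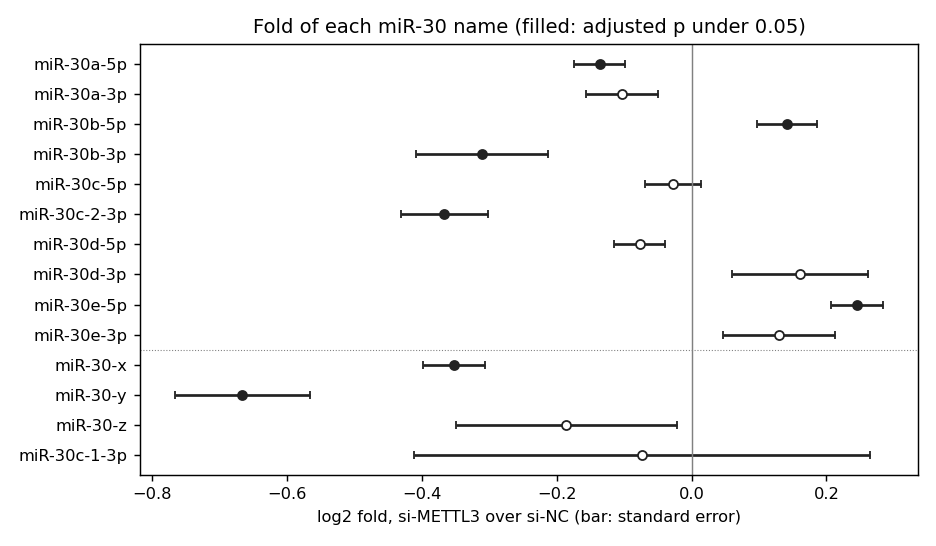
Log2 fold of si-METTL3 over si-NC (points) with its standard error (bars) for the 10 members, above the dotted line, and for 4 related names below it. Filled points passed an adjusted p of 0.05, with the largest rise of the members in miR-30e-5p at 0.25 and the largest fall in miR-30c-2-3p at -0.37.

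The balance between the arms of a hairpin was compared as the count of the 5p arm over that of the 3p arm, which cancels the scaling of the library. Over all mouse hairpins, 148 pairs of arms were tested (limma on log2 ratios, two-sided, Benjamini-Hochberg adjustment) and 23% passed. The spread behind these p-values came almost wholly from the trend over all pairs, so a pair's own libraries barely entered its standard error. Of all pairs, 22 passed towards the 5p arm and 12 towards the 3p arm. Of the 5 member pairs, 2 passed, both with the balance moving towards the 5p arm. For miR-30b there were 18.5, 17.6 and 17.5 reads of the 5p arm to each read of the 3p arm in si-NC and 22.5, 25.2 and 25.9 in si-METTL3. The groups did not overlap and the log2 ratio rose by 0.45 ± 0.11 SE (adjusted p 1.8e-04, limma).

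For miR-30c-5p over miR-30c-2-3p the ratio was 29.4, 31.1 and 26.4 in si-NC and 35.0, 37.6 and 37.2 in si-METTL3. Again no library of one group reached the other, and the log2 ratio rose by 0.34 ± 0.07 (adjusted p 1.4e-05, limma). Since miR-30c-5p sums 2 loci, this is not the balance of 1 hairpin. With the term for the 3 sets neither pair passed, at 0.36 ± 0.15 (adjusted p 0.083) for miR-30b and 0.29 ± 0.11 (adjusted p 0.052) for miR-30c. Both passed in each of the other 12 alternatives.

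The remaining pairs did not pass. miR-30d stood at 152, 145 and 151 in si-NC and at 129, 121 and 129 in si-METTL3. Its groups did not overlap, with a log2 change of -0.24 ± 0.11 (adjusted p 0.103, limma). Its sign is opposite to that of miR-30b at the same locus, a difference that was not itself tested. miR-30a stood at 65.6 to 73.1 in si-NC and 65.5 to 70.8 in si-METTL3, overlapping (-0.03 ± 0.06, adjusted p 0.772). miR-30e stood at 76.0 to 93.1 and 91.1 to 94.4 (0.11 ± 0.09, adjusted p 0.350).

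**Figure D3:**
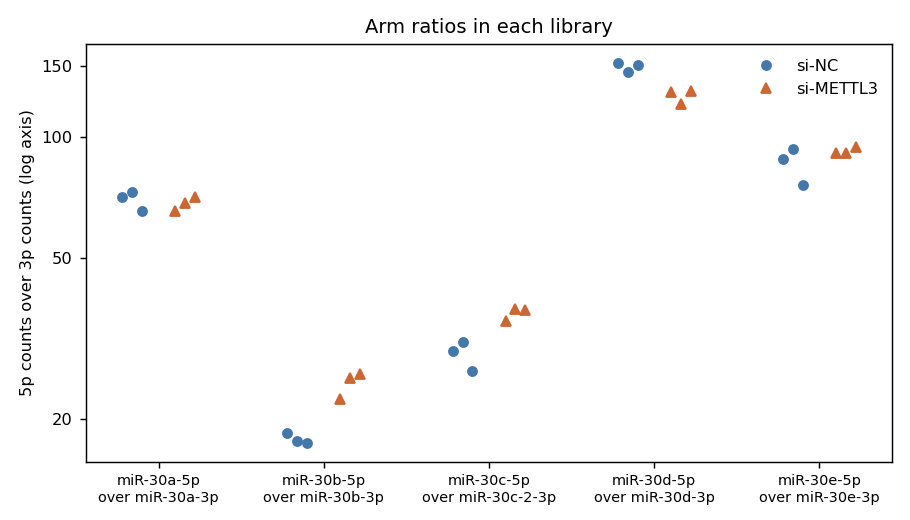
Counts of the 5p arm over counts of the 3p arm (log axis) in each library for the 5 member pairs, circles for si-NC and triangles for si-METTL3. The miR-30b and miR-30c pairs lie higher in all si-METTL3 libraries, the miR-30d pair lies lower, and the miR-30a and miR-30e pairs overlap.

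The sums over loci lay on both sides of their si-NC levels. The 10 members together stood at 49621, 51121 and 49673 CPM in si-NC and at 47727, 49179 and 48161 in si-METTL3, 0.964 of the si-NC level. Those of the Mir30a and Mir30c-2 locus, without the shared miR-30c-5p, summed to 29661 ± 468 and 26966 ± 381 CPM (0.909). The miR-30b and miR-30d locus gave 7356 ± 96.8 and 7120 ± 92.5 (0.968), and both arms of Mir30e gave 6865 ± 181 and 8130 ± 119 (1.18). In si-NC most of each locus sum was a single arm, miR-30a-5p (29028 CPM), miR-30d-5p (6319) or miR-30e-5p (6785). The locus sums are therefore not results separate from those arms. No sum over chosen members was tested.

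Within the 5p arms, which share a seed, miR-30a had a smaller share and miR-30e a larger one in si-METTL3, given with no test. miR-30a-5p made up 58.8% to 59.0% of their counts in si-NC and 55.4% to 55.5% in si-METTL3. miR-30e-5p made up 13.5% to 13.9% and 16.8% to 17.1%. The share of miR-30c-5p (12.7% ± 0.243 and 12.9% ± 0.396) overlapped between groups. That of miR-30d-5p (12.8% ± 0.123 and 12.6% ± 0.156) did not, though its nearest libraries stood at 12.74% and 12.72%. That of miR-30b-5p was 1.91% ± 0.0321 and 2.18% ± 0.0682, without overlap. These shares are fractions of one sum, so one share cannot rise without another falling.

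Besides the members, the table lists 3 rows under the names miR-30-x, miR-30-y and miR-30-z, which the authors did not give a mouse prefix. They are shown because they match member arms except at the 3′ end. Letters were taken from the deposited table with T written as U, and capitals mark bases that the mouse hairpin does not hold at that place.
miR-30-x: uguaaacauccucgacuggaagcuU
miR-30-y: cuuucagucggauguuugcagcCA
miR-30-z: uguaaacauccuacacucucagAAU
miR-30-x, at 25 bases, extends miR-30a-5p by 3, of which the last is not in Mir30a. miR-30-y extends miR-30a-3p by 2 bases that Mir30a does not hold. miR-30-z shares the first 22 bases of miR-30c-5p and ends in 3 others.

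Both longer forms of miR-30a fell more than the arm they extend. miR-30-x stood at 1110, 1205 and 1206 CPM in si-NC and at 895, 950.0 and 913 in si-METTL3, without overlap (log2 fold -0.35 ± 0.05, adjusted p 2.4e-06, edgeR). miR-30-y stood at 65.3, 59.0 and 59.6 CPM and at 35.4, 39.4 and 41.4, also without overlap (log2 fold -0.67 ± 0.10, adjusted p 1.3e-05). miR-30-z lay between 16.9 and 20.04 CPM in si-NC and between 15.9 and 16.3 in si-METTL3, on 70 to 97 counts per library, and did not pass (log2 fold -0.19 ± 0.16, adjusted p 0.452).

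Each variant was also set against its own arm, in a limma fit over 138 such pairs of the table in which 17.4% passed, 7.97% with a lower ratio in si-METTL3. Of the 3 pairs of miR-30, 2 passed, both lower. Over all pairs 24 passed, and 15 without si-NC 1. miR-30-x was 3.87%, 4.07% and 4.19% of miR-30a-5p in si-NC and 3.43%, 3.54% and 3.47% in si-METTL3. This was a change of -0.22 ± 0.05 in the log2 ratio (adjusted p 0.0016, limma). miR-30-y was 16.1%, 14.6% and 13.6% of miR-30a-3p in si-NC and 8.90%, 10.1% and 11.1% in si-METTL3, a change of -0.56 ± 0.12 (adjusted p 7.7e-04, limma). Both ratios were lower in all si-METTL3 libraries. With the term for the 3 sets they kept their sign but did not pass (-0.27 ± 0.09, adjusted p 0.091, and -0.66 ± 0.21, adjusted p 0.055). For miR-30-z over miR-30c-5p the change was -0.15 ± 0.17 (adjusted p 0.624).

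**Figure D4:**
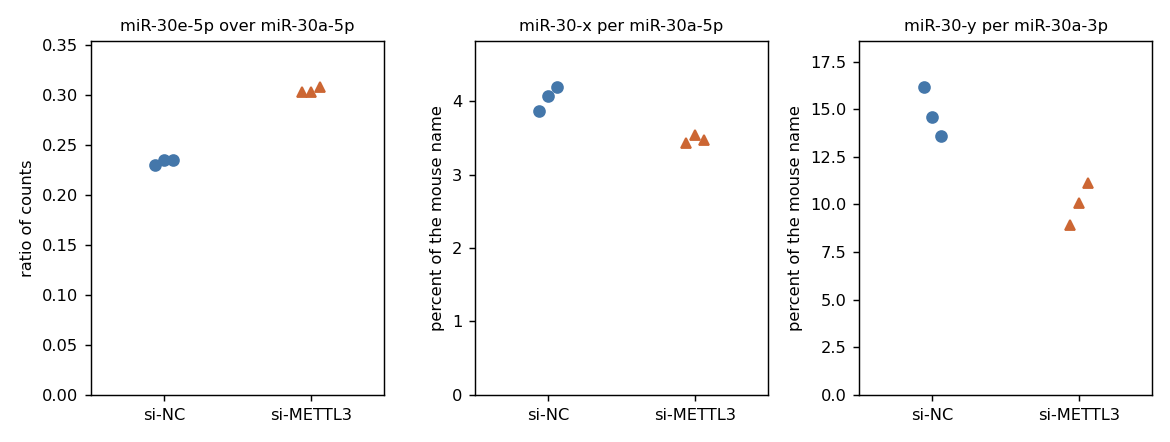
Left, counts of miR-30e-5p over counts of miR-30a-5p; middle and right, miR-30-x as a percent of miR-30a-5p and miR-30-y as a percent of miR-30a-3p, with 1 point for each library. The left ratio lies at 0.230 to 0.236 in si-NC and 0.303 to 0.308 in si-METTL3, and both percentages lie lower in all si-METTL3 libraries.

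In the authors' deposited table miR-30e-5p had a log2 fold of 0.18 (FDR 4.8e-08), miR-30c-2-3p of -0.43 (FDR 2.3e-06) and miR-30a-5p of -0.20 (FDR 0.0086). None of these names, members or variants, is among the 50 names of the authors' deposited list of different miRNAs, whose smallest absolute log2 fold is 1.005.

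The names outside the family whose levels ran most like miR-30a-5p over the 6 libraries were miR-26b-5p, miR-374b-5p and miR-22-3p. Likeness was the root mean square difference in log2 CPM after each name was centred on its own mean, 0.022, 0.026 and 0.030 for these names and 0.128 at the median of 164 names with at least 100 CPM. Their log2 folds, -0.15 ± 0.04, -0.18 ± 0.05 and -0.18 ± 0.04, are a description, since the choice by likeness to miR-30a-5p fixed their direction.

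Of 16 other miRNAs known, like miR-30, for repressing genes of matrix or mesenchymal cells, 15 were listed and 11 tested, with 2 higher and 4 lower, beside 17.7% higher and 11.6% lower of all tested names. Their median log2 fold was -0.15, beside 0.0054 over all tested names. Their summed level went the other way, from 22600 to 22800 CPM in si-NC to 25200 to 25500 in si-METTL3, and most of it was miR-26a-5p, at 14200 ± 114 and 17300 ± 103 CPM. miR-26a-5p (log2 fold 0.29 ± 0.04, adjusted p 2.0e-06, edgeR) and miR-101a-3p (0.34 ± 0.08, adjusted p 0.0022) rose. The epithelial miR-200a-3p fell by 0.71 ± 0.15 (adjusted p 6.6e-04), miR-141-3p by 0.52 ± 0.11 (adjusted p 7.1e-04) and miR-200b-3p by 0.58 ± 0.22 (adjusted p 0.048), and miR-26b-5p by 0.15 ± 0.04 (adjusted p 0.0074). None of the miR-29 guides, which repress collagen genes, passed. The log2 fold was -0.07 ± 0.04 for miR-29a-3p (adjusted p 0.163, edgeR). It was 0.04 ± 0.06 for miR-29b-3p (adjusted p 0.625) and -0.23 ± 0.14 for miR-29c-3p (adjusted p 0.235).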

How the data were processed

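Small RNA of 3 si-NC and 3 si-METTL3 libraries was measured, grouped by sample title. The submitters' processing notes list mm10, RSEM, StringTie, Bowtie2 and fastp without roles, and how reads were assigned to names is not stated in the labels. Per the file headers, the deposited count is whole reads per mature name. By calculation from the values, the deposited TPM equals that count over one library total, to within 5e-05. The authors' log2 fold compares group means of TPM, and the file headers do not name the test behind the authors' p-value. Of the table, 2 lines were emptied beforehand and are not analysed here.

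Counts were tested with edgeR 4.0.16 after TMM scaling and filterByExpr, with robust dispersions, no block and 4 residual degrees of freedom (common coefficient of biological variation 0.0583). The edgeR p-values and standard errors also draw on the spread of the other names. Library sizes were the totals behind the TPM. Ratios were tested with limma 3.58.1 with a mean-variance trend, on log2((a + 0.5)/(b + 0.5)) where both names averaged 10 counts or more. A row was paired with the mouse name sharing its first 18 bases, and with the longest shared start where several did. No libraries of a group were duplicates (chi-square per degree of freedom 8.35 to 13.2). The edgeR test and the arm ratio test were checked on simulated counts. These held no library sets, so the check says nothing of them. The members, lists and named miRNAs were chosen with earlier results of these data known. The text names all members, the rows named or seeded like them, the 3 nearest patterns and, of the matrix list, the names that passed. The miR-29 guides were added after their values were seen. The variant ratio test was also added after the data were seen. Alternatives are given in the closing section.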

Additional observations from a re-analysis of the deposited data

How the results depend on the processing

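The calls of miR-30a-5p, miR-30c-2-3p and miR-30e-5p held in all 19 alternatives to the test over all names, with log2 folds of -0.20 to -0.12, -0.43 to -0.33 and 0.18 to 0.27. The replicate numbers did not pair the libraries (correlation of same-numbered deviations -0.52, -0.31 and -0.42), and no library correlated best with its own number. A fit with the replicate block called 176 names against 182, and the same 5 members. Library totals alone and limma on log2(TPM + 1), log2(TPM + 0.5) or log2(TPM + 5) lost miR-30b-5p and added miR-30a-3p and miR-30d-5p. A filter of 10 CPM added miR-30d-5p (adjusted p 0.041, edgeR), with 181 of 413 names passing. DESeq2's size factors or Wald test, no filter and mouse names only kept the number of members called. Without 1 library, 153 to 171 names and 3 to 5 members passed.

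Only 1 set holds both groups, and si-METTL3 1 is its only si-METTL3 library. On that set rests the term for the 3 sets of libraries. With it 122 of all 622 names passed instead of 182, 3 members instead of 5, 19 pairs of arms instead of 34 and 4 variant pairs instead of 24, with larger standard errors. A term for miR-750-y alone left 174 names, 4 members, 29 pairs of arms and 21 variant pairs. Without 1 library, 28 to 36 pairs of arms and 15 to 25 variant pairs passed, the 15 without si-NC 1. For all 10 members the fold of the sum was 0.921 on deposited TPM against 0.964 on TMM-scaled CPM. For 5p arms it was 0.922 against 0.965, and for the Mir30a locus 0.868 against 0.909. For miR-30b with miR-30d it was 0.924 against 0.968, and for Mir30e 1.13 against 1.18. Leaving out 1 library gave 0.956 to 0.974 for all members.

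Directions turned for names that never passed. miR-30c-1-3p reached 0.28 with the term for the 3 sets and 0.017 with that for miR-750-y, and -0.35 to 0.12 without 1 library. Its arm ratio reached -0.32 with the 3 sets, and -0.15 to 0.34 without 1 library. The arm ratio of miR-30a reached 0.020 with variants summed, and -0.078 to 5.9e-04 without 1 library. At 42.4 CPM, as for miR-30d-3p, standard errors of 0.10 limit what can be seen. The causes of these changes were not tested.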
